A study of Rattus norvegicus with 10 samples.

Results

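The genes described here encode the enzymes that conjugate drugs, hormones, bile acids and bilirubin in liver: the UDP-glucuronosyltransferases (UGT), the cytosolic sulfotransferases (SULT) and the soluble glutathione S-transferases (GST). They were taken by symbol: names beginning with Ugt or Sult and a digit, or with Gst, a class letter (a, k, m, o, p, s, t or z) and a digit. The rule itself uses no values, but it was chosen with earlier results of these data known. The rule found 37 genes among the 20700 named genes of a rat liver RNA-seq table, 6 UGT, 11 SULT and 20 GST, and these rest on 135 of its 51430 isoforms. The samples were livers of wistar rats labelled wild type. Every rat was made diabetic, by 4 weeks on a diet giving 60% of calories as fat and then 1 injection of streptozotocin, a toxin of the insulin-producing beta cell, at 35 mg/kg after 16 h of fasting. Rats with a fasting glucose above 16.7 mmol/L 3 days later were divided at random into sleeve gastrectomy (SG), which removes most of the stomach, and a sham operation (SHAM). Each group holds 5 libraries. The SG samples are labelled as taken at 3 months and the SHAM samples carry no time, so time since surgery and the operation cannot be told apart. Sex, age and the hour of sampling are not given in the sources used here, nor whether a rat gave more than 1 sample, so p-values cover only the spread from sample to sample.

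Conjugation makes fat-soluble compounds soluble enough to leave in bile or urine. UGT enzymes sit in the endoplasmic reticulum and transfer glucuronic acid from UDP-glucuronate, SULT enzymes work in the cytosol and transfer sulfate from the donor PAPS, and GST enzymes couple glutathione to electrophiles and lipid peroxidation products. Hepatocytes are a main site of all 3 reactions, and many of the genes are induced by the transcription factor Nrf2, the aryl hydrocarbon receptor and the nuclear receptors CAR and PXR, while some in rat liver follow the sex-specific pattern of growth hormone acting through STAT5.

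Nrf2 acts through the antioxidant response element, and rat Gstp1 is a textbook carrier of that element, so the sequences shown are the windows of the 3 members that hold its core letters, with that of Sult1c2a, the member with the smallest p in the comparison of groups, beside them. RefSeq sequences of the GRCr8 assembly were found for 34 of the 37 members, in 36 windows, and each line gives the 250 bases before the annotated start, read 5′ to 3′ on the gene's strand. Capitals mark a match to TGACNNNGC on either strand.
Gsta3: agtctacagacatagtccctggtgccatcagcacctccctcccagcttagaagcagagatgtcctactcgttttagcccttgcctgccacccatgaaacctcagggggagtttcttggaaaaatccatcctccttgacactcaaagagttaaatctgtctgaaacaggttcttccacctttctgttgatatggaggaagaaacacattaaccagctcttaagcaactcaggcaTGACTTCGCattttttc
Gstp1: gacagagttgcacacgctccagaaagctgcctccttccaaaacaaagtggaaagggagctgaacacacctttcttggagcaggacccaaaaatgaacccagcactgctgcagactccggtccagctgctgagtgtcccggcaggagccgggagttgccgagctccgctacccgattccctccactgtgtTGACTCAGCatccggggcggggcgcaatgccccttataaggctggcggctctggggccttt
Gstz1: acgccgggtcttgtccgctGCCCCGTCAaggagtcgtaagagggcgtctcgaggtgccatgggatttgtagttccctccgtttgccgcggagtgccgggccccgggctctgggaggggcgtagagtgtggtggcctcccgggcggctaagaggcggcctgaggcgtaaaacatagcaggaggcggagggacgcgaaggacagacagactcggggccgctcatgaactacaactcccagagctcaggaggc
Sult1c2a: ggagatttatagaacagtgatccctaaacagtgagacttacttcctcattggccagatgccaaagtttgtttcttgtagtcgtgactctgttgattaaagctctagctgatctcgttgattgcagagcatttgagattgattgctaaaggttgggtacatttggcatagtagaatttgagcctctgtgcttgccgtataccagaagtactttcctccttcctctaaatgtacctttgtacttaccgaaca
These windows lie at chr9:31154739-31154988 on the plus strand for Gsta3, chr1:210769706-210769955 on the minus strand for Gstp1, chr6:112525356-112525605 on the plus strand for Gstz1 and chr9:7103203-7103452 on the minus strand for Sult1c2a, all in GRCr8. The match begins 17 bases before the start in Gsta3, 61 in Gstp1 and 231 in Gstz1, where it is read on the opposite strand. Gsta3 has another window, which held no match. Bases further upstream were not searched, so the known element of a gene may lie outside its window. Whether any match acts as an element was not tested. Windows of the same length held these letters in 3373 of 33469 cases (10.1%), against 3 of 19 GST windows, 0 of 6 UGT windows and 0 of 11 SULT windows. The core letters bound by the aryl hydrocarbon receptor, GCGTG on either strand, were in 25.9% of all windows and in 2 UGT, 1 SULT and 5 GST windows. The letters TTCNNNGAA, the STAT5-type element, were in 7.67% of all windows and in 0 UGT, 1 SULT and 3 GST windows. The motifs were searched one by one, so matches of different motifs may overlap. In the livers the 3 genes with the antioxidant core stood at different levels and their differences between the groups had different signs, as given under the GST genes.

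Estimated counts totalled 65824088 to 92110190 per library, of which 90.01% to 92.1% lay in named genes. Levels are given in FPKM, fragments per transcript length and library size, summed over the isoforms of a gene, so they can be compared between genes. Group differences are log2 fold changes of SG relative to SHAM, from edgeR's quasi-likelihood test on the estimated counts. Their standard error (SE) was derived from the F statistic of that test. A gene was called at an adjusted p under 0.05 over all 11296 genes with a mean of at least 1 FPKM. The liver label is borne out by the level of albumin, with Alb at 15517 to 27810 FPKM. Of 8 markers of stomach and small intestine lining only 3 were found, and their sum did not pass 0.62 FPKM. SG 2 stood apart by its cell type markers, and SHAM 5 shared part of that pattern; the values are given further on. Because the tissue is bulk liver, fewer cells of a type and less RNA per cell cannot be told apart.

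No conjugation gene passed the test between SG and SHAM. Of the 37 genes 30 passed the level filter, 5 UGT, 8 SULT and 17 GST, and edgeR called 0 of them. Over all genes it called 0 of 11296 (0.0%), with a smallest adjusted p of 0.992. At an unadjusted p under 0.05 it placed 303 genes (2.68%) higher and 209 (1.85%) lower in SG, and 1 of the 30 members was among them, Sult1c2a. DESeq2 called 19 of 11241 genes (0.169%) and limma on FPKM called 0, in neither case a member. Complete separation of the 5 SG from the 5 SHAM values in FPKM was seen in 143 genes (1.27%) with SG higher and 5 (0.0443%) with SG lower, and in 0 members either way. The median log2 fold change was 0.15 over the 5 UGT genes, with 4 positive, 0.13 over the 8 SULT genes, with 4 positive, and -0.10 over the 17 GST genes, with 3 positive, against -0.01 over all tested genes. The SULT median turned to -0.03 with no filter on low values and to -0.09 with reference isoforms only. The 95% interval of the fold change lay within 2-fold either way for 20 of the 30 members (66.7%), against 84.3% of all tested genes, and within 1.5-fold for 9, against 59.9%. By family the first count was 4 of 5 UGT, 3 of 8 SULT and 13 of 17 GST genes, so a 2-fold change was not excluded for the other SULT genes.

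**Figure D1:**
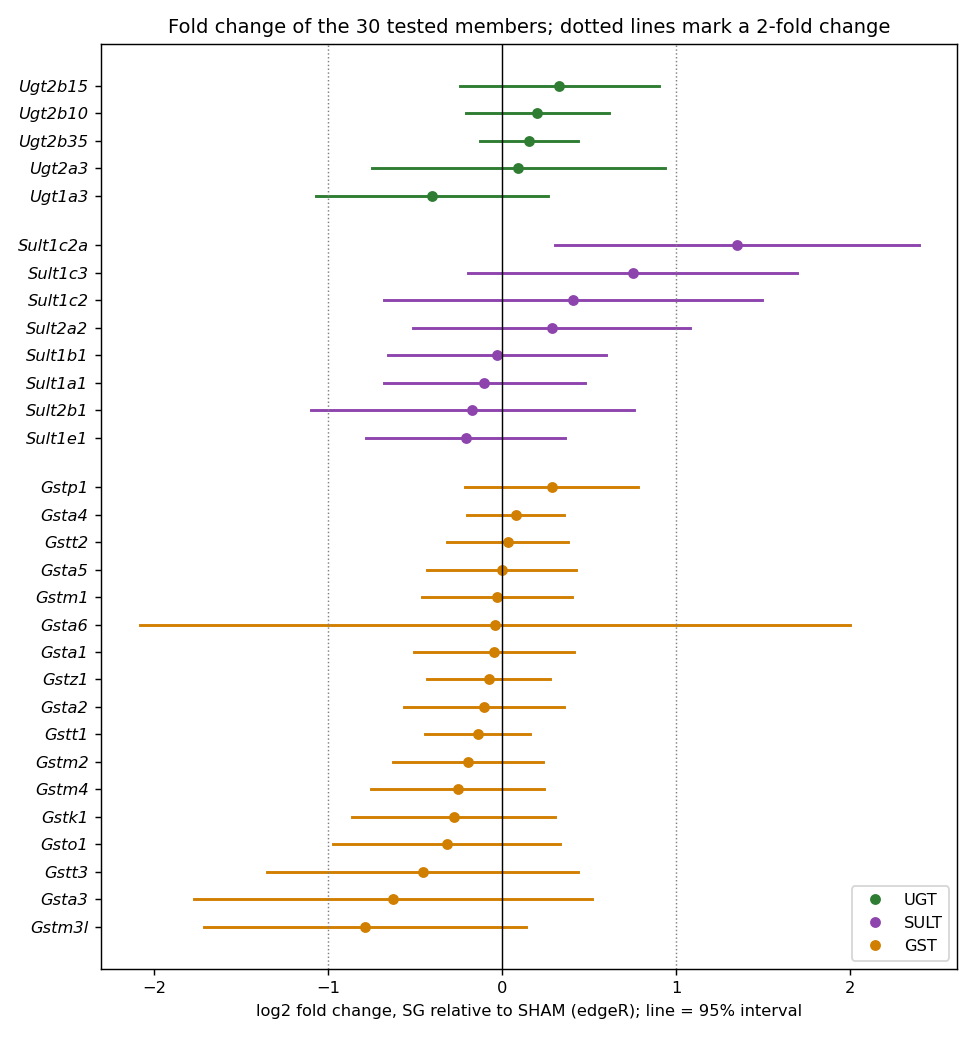
Log2 fold change of SG relative to SHAM for the 30 tested members, from edgeR, with lines for the 95% interval and dotted lines at a 2-fold change. Sult1c2a (1.35) is the member whose interval leaves out 0, and Gsta6 has the widest interval, from -2.08 to 2.0.

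The UGT genes were expressed at high and graded levels. Ugt2b15 (chr14:22326030-22534720 in the file's build, Rnor_6.0, plus strand), of a subfamily that conjugates steroids, averaged 639 FPKM over the 10 libraries, and Ugt1a3 (chr9:95161157-95302822, plus strand), the name under which the table holds the bilirubin and phenol conjugating UGT1A locus, averaged 571 FPKM. Together they gave 75.4% of the family's FPKM. Ugt2b15 was the higher of the pair in 7 of 10 libraries, so their order was not fixed. Ugt1a3 exceeded Ugt2b35 in all 10 libraries without overlap of their ranges, and Ugt2b35, Ugt2b10 and Ugt2a3 followed in that order in all 10 libraries, although the ranges of neighbours overlapped. Ugt8, which makes galactosylceramide for myelin, was listed at 0 in 9 libraries and at 0.00951 FPKM in SHAM 3.

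Ugt2b15 stood at 732, 486, 733, 1023 and 703 FPKM in SG 1 to SG 5. In SHAM 1 to SHAM 5 it stood at 727, 527, 615, 482 and 367 FPKM. The groups overlapped, with SG 4 highest and SHAM 5 lowest. The name Ugt2b15 covers 14 isoforms over 208.7 kb. RefSeq lists 9 Ugt2b genes where the table has 3 Ugt2b names, so isoforms of close copies could share reads. The isoform with the highest mean gave 4.82% to 58.7% of the gene value by library. It stood at 600 FPKM in SG 4 and at 25.4 to 126 FPKM in the other libraries. The means were 735 ± 191 and 544 ± 135.9 FPKM (SD, n = 5 each), and the log2 fold change was 0.33 ± 0.26 (SE, adjusted p = 0.992 by edgeR).

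Ugt1a3 stood at 526, 357, 370, 475 and 855 FPKM in SG 1 to SG 5. Its SHAM values were 440, 480, 483, 731 and 993 FPKM. One library in each group, SG 5 and SHAM 5, lay far above most of the others. SG relative to SHAM gave a log2 fold change of -0.40 ± 0.30 (SE, adjusted p = 0.992 by edgeR), and without SHAM 5 it was -0.16. As a share of the family, Ugt1a3 took 24.1% to 40.6% in SG and 28.4% to 58.8% in SHAM, while Ugt2b15 took 33.4% to 52.0% and 21.7% to 46.9%. SHAM 5 thus held the highest Ugt1a3 value and the lowest Ugt2b15 value of the series.

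Ugt2b35 was the steadiest UGT gene, at 185 to 280 FPKM in SG and 156 to 237 FPKM in SHAM, with a log2 fold change of 0.15 ± 0.13 (SE). Ugt2b10, named for the human enzyme that glucuronidates nicotine, had medians of 122 FPKM (77 to 177) in SG and 92.5 FPKM (85.3 to 126) in SHAM, with a log2 fold change of 0.20 ± 0.19 (SE). Both had an adjusted p of 0.992 by edgeR. Ugt2a3 stood at 71.5, 18.6, 68.9, 109 and 89.9 FPKM in SG 1 to SG 5 and at 61.4, 64.2, 77.5, 71.9 and 39.1 FPKM in SHAM 1 to SHAM 5. It was lowest in SG 2 and next lowest in SHAM 5. Its log2 fold change of 0.09 ± 0.38 (SE, adjusted p = 0.992 by edgeR) became 0.34 without SG 2 and -0.14 without SG 4.

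The name Ugt1a3 covers more than a single enzyme. The locus is known for a row of alternative first exons, each with its own promoter, spliced to exons that all the UGT1A enzymes share, and RefSeq lists 8 protein-coding Ugt1a genes there, from Ugt1a9 to Ugt1a1. The table puts 12 isoforms, 10 of them reference transcripts, under Ugt1a3. The one that begins nearest the shared end, at position 95295701, gave 76.5% of the gene value, from 70.4% to 80.9% by library. The next, beginning at 95256627, gave 15.3%. In each library the same isoform therefore led, and the high values of SG 5 (669 FPKM) and SHAM 5 (800 FPKM) were those of this leading isoform. None of the remaining isoforms passed 37.4 FPKM in any library. One reference isoform that begins at 95241626 stood at 37.4 FPKM in SHAM 3 and 11.5 FPKM in SHAM 5 and at no more than 0.0639 FPKM in the other 8 libraries. A near-identical neighbour that begins at 95241609 was at its lowest in the same pair, at 2.15 and 0.795 FPKM, against 10.99 to 29.5 FPKM elsewhere.

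**Figure D2:**
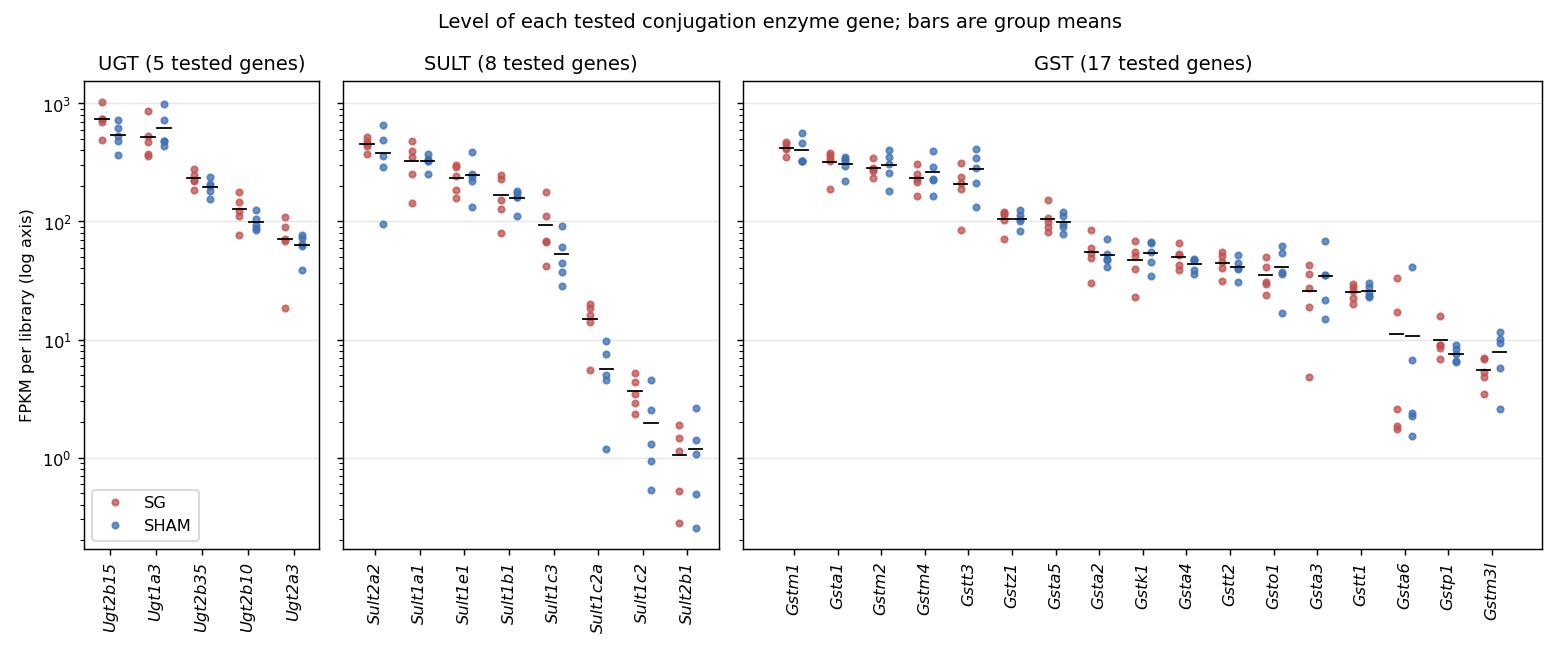
FPKM of each tested member in each library on a log axis, by family in order of mean level, with SG in red, SHAM in blue and bars at the group means. Points of both groups overlap for every gene, and in Ugt2a3, Gsta3 and Gstt3 the lowest SG point, SG 2, lies well under the rest.

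The SULT genes were led by 4 genes that gave 92.9% of the family's FPKM. Sult2a2 (chr1:76051561-76780230, minus strand), of the hydroxysteroid and bile acid sulfotransferases, averaged 415 FPKM. Sult1a1, the phenol sulfotransferase, averaged 323 FPKM, Sult1e1, the estrogen sulfotransferase, 241 FPKM, and Sult1b1, which sulfates thyroid hormone and phenols, 163 FPKM. Neighbours in this order kept it in 8 or 9 of 10 libraries and their ranges overlapped. Sult1c3 followed at a mean of 93.6 FPKM in SG and 52.5 FPKM in SHAM, and Sult1c2a, Sult1c2 and Sult2b1 were lower. Sult1d1, Sult5a1 and Sult6b1 reached at most 0.384 FPKM in any library and were not tested.

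Sult1c2a (chr9:4152589-4168344, minus strand) was the member with the largest difference. It stood at 20.1, 14.1, 5.54, 18.5 and 16.1 FPKM in SG 1 to SG 5. In SHAM 1 to SHAM 5 it stood at 9.74, 7.61, 4.96, 4.57 and 1.19 FPKM. SG 3 lay among the SHAM values, and the other 4 SG libraries lay above every SHAM library. The means were 14.9 ± 5.70 and 5.61 ± 3.24 FPKM (SD, n = 5 each). The log2 fold change was 1.35 ± 0.47 (SE), with a 95% interval of 0.30 to 2.39, an unadjusted p of 0.0163 and an adjusted p of 0.992 by edgeR's quasi-likelihood test. Leaving out each library in turn gave log2 fold changes of 1.09 to 1.61. The gene lies, on the opposite strand, inside the span the table gives to Sult1c2 (chr9:4074873-4868166, plus strand), and strand use in counting is not stated, so reads of the pair cannot be told apart with certainty.

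Sult1c3 stood at 68.5, 179, 66.4, 112 and 42.3 FPKM in SG 1 to SG 5. Its SHAM values were 60.3, 37.6, 28.4, 44.9 and 91.5 FPKM. SG 2 was the highest library and SG 5 lay inside the SHAM range. The log2 fold change was 0.75 ± 0.43 (SE, adjusted p = 0.992 by edgeR) and ran from 0.38 without SG 2 to 1.07 without SHAM 5. Sult1c2 was low, at 2.36 to 5.22 FPKM in SG and 0.532 to 4.54 FPKM in SHAM, with a log2 fold change of 0.41 ± 0.49 (SE, adjusted p = 0.992 by edgeR). Leaving out each library gave 0.17 (without SHAM 1) to 1.01 (without SHAM 4) for Sult1c2, and limma on FPKM, which called 0 genes, gave 0.77 to 1.16 over 3 pseudocounts, with an unadjusted p of 0.0355 and an adjusted p of 0.756 at a pseudocount of 0.5. The 3 Sult1c genes lie together on chromosome 9, and their summed level was 60.7 to 195.8 FPKM in SG and 34.3 to 94.0 FPKM in SHAM.

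Sult2a2 stood at 371, 453, 515, 439 and 478 FPKM in SG 1 to SG 5. In SHAM 1 to SHAM 5 it stood at 487, 292, 361, 658 and 94.4 FPKM. The SG libraries kept to a narrow band, and the SHAM libraries held both the highest and the lowest value. The means were 451 ± 53.3 and 379 ± 211 FPKM (SD, n = 5 each). The log2 fold change was 0.28 ± 0.36 (SE, adjusted p = 0.992 by edgeR), 0.05 without SHAM 5, and -0.10 from reference isoforms only. The name covers 26 isoforms over 728.7 kb, where RefSeq lists 3 Sult2a genes, and they could share reads. The leading isoform gave 27.6% to 70.2% of the value by library, and a reference isoform at chr1:76529121-76722965 stood at 208 FPKM in SHAM 1, 65.6 in SG 4 and 56.5 in SHAM 4 and was listed at 0 in the other 7 libraries.

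Sult1a1 stood at 350, 144, 252, 392 and 476 FPKM in SG 1 to SG 5 and at 337, 373, 328, 253 and 329 FPKM in SHAM 1 to SHAM 5. The group means were nearly equal, at 323 and 324 FPKM, and SG held both the highest and the lowest library. Sult1b1 had the same shape, at 151, 80.5, 128, 228 and 248 FPKM in SG 1 to SG 5 against 112 to 182 FPKM in SHAM. Sult1e1 stood at 291, 158, 184, 244 and 302 FPKM in SG 1 to SG 5 and at 221, 239, 251, 134 and 387 FPKM in SHAM 1 to SHAM 5. The log2 fold changes were -0.10 ± 0.26 for Sult1a1, -0.03 ± 0.28 for Sult1b1 and -0.21 ± 0.26 for Sult1e1 (SE; adjusted p = 0.992 to 0.997 by edgeR). Each turned positive when SG 2 and SHAM 5 were left out together, at 0.10, 0.16 and 0.12. Sult2b1, known in humans for cholesterol sulfation in skin, was the lowest tested member, at 0.255 to 2.61 FPKM over the 10 libraries.

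The GST genes spread their level over more genes than the other families: the 4 highest gave 62.2% of the family's FPKM and the 5 highest 74.2%. Gstm1 averaged 411 FPKM, Gsta1 314, Gstm2 290, Gstm4 248 and Gstt3 243 FPKM. Neighbours among these 5 kept their order in 4 to 8 of 10 libraries and their ranges overlapped. The alpha and mu classes are the abundant GST classes of adult rat liver, and the pi class gene Gstp1, best known as a marker of preneoplastic foci in rat liver, averaged under 10 FPKM in both groups. Gstm3, Gstm6 and Gsto2 reached at most 1.38 FPKM in any library and were not tested.

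Gsta1 (chr9:27364826-27452902, minus strand) stood at 347, 189, 326, 367 and 381 FPKM in SG 1 to SG 5. Its SHAM values were 329, 350, 336, 296 and 220 FPKM. SG 2 and SHAM 5 were the lowest of their groups. Its log2 fold change was -0.05 ± 0.21 (SE), and the mean FPKM of SG was the higher, so its sign depended on the scale. Gsta3 stood at 42.8, 4.77, 35.8, 18.8 and 27.6 FPKM in SG 1 to SG 5 and at 35.2, 21.6, 67.8, 34.9 and 14.8 FPKM in SHAM 1 to SHAM 5. SG 2 was far below the other 9 libraries. Its log2 fold change of -0.63 ± 0.52 (SE) ran from -0.84 without SG 1 to -0.25 without SHAM 3. Both genes had an adjusted p of 0.992 by edgeR. Their spans overlap on opposite strands, so reads may be shared.

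Gsta6 stood at 1.74, 1.86, 2.57, 32.9 and 17.0003 FPKM in SG 1 to SG 5 and at 1.52, 2.24, 41.2, 6.68 and 2.37 FPKM in SHAM 1 to SHAM 5. The high libraries were SG 4, SG 5 and SHAM 3. SG relative to SHAM gave a log2 fold change of -0.04 ± 0.92 (SE, adjusted p = 0.9999 by edgeR), with 1.37 without SHAM 3 and -0.87 without SG 4. An assembled isoform (chr9:27436258-27511176) gave 83.9% of the value, and its lower end has the same coordinate as that of the leading Gsta1 isoform. The reference isoform of Gsta6 stood at 1.04 to 2.57 FPKM in all 10 libraries. The other alpha genes differed little: Gsta4, the class member specialised for 4-hydroxynonenal, stood at 38.9 to 65.8 FPKM in SG and 35.9 to 47.8 FPKM in SHAM, with a log2 fold change of 0.08 ± 0.13 (SE, adjusted p = 0.992 by edgeR). Gsta5 stood at 80.9 to 153 FPKM in SG and 78.3 to 120 FPKM in SHAM, and Gsta2 at 29.9 to 85.0 and 41.4 to 71.3 FPKM. SG 1 was the highest library for both, and the groups overlapped.

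The mu genes lie in a cluster on chromosome 2 from 210685197 to 210839295, where RefSeq lists 9 protein-coding Gstm genes and the table has 6 names. Gstm1 stood at 413, 451, 353, 418 and 468 FPKM in SG 1 to SG 5 and at 327, 328, 323, 565 and 461 FPKM in SHAM 1 to SHAM 5. SHAM 1 to SHAM 3 lay below every SG library and SHAM 4 above. Gstm2 stood at 268, 234, 282, 344 and 277 FPKM in SG 1 to SG 5 and at 257, 304, 180, 351 and 404 FPKM in SHAM 1 to SHAM 5, and Gstm4 at 228, 218, 164, 253 and 305 FPKM in SG and 165, 227, 231, 292 and 396 FPKM in SHAM. SHAM 5 was the highest library for both Gstm2 and Gstm4. The log2 fold changes were -0.03 ± 0.19 for Gstm1, -0.20 ± 0.20 for Gstm2 and -0.26 ± 0.22 for Gstm4 (SE; adjusted p = 0.992 to 0.996 by edgeR), and without SHAM 5 both of the latter were -0.07. Gstm3l, a low mu gene, stood at 6.87, 5.32, 3.46, 4.84 and 6.99 FPKM in SG 1 to SG 5 and at 9.31, 2.56, 5.71, 10.1 and 11.6 FPKM in SHAM 1 to SHAM 5. SHAM 2 was its lowest library and SHAM 1, SHAM 4 and SHAM 5 lay above every SG library. The log2 fold change of Gstm3l was -0.79 ± 0.42 (SE, adjusted p = 0.992 by edgeR), and limma on log2(FPKM + 0.5) gave -0.36. The cluster as a whole summed to 804 to 1057 FPKM in SG and 742 to 1273 FPKM in SHAM.

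**Figure D3:**
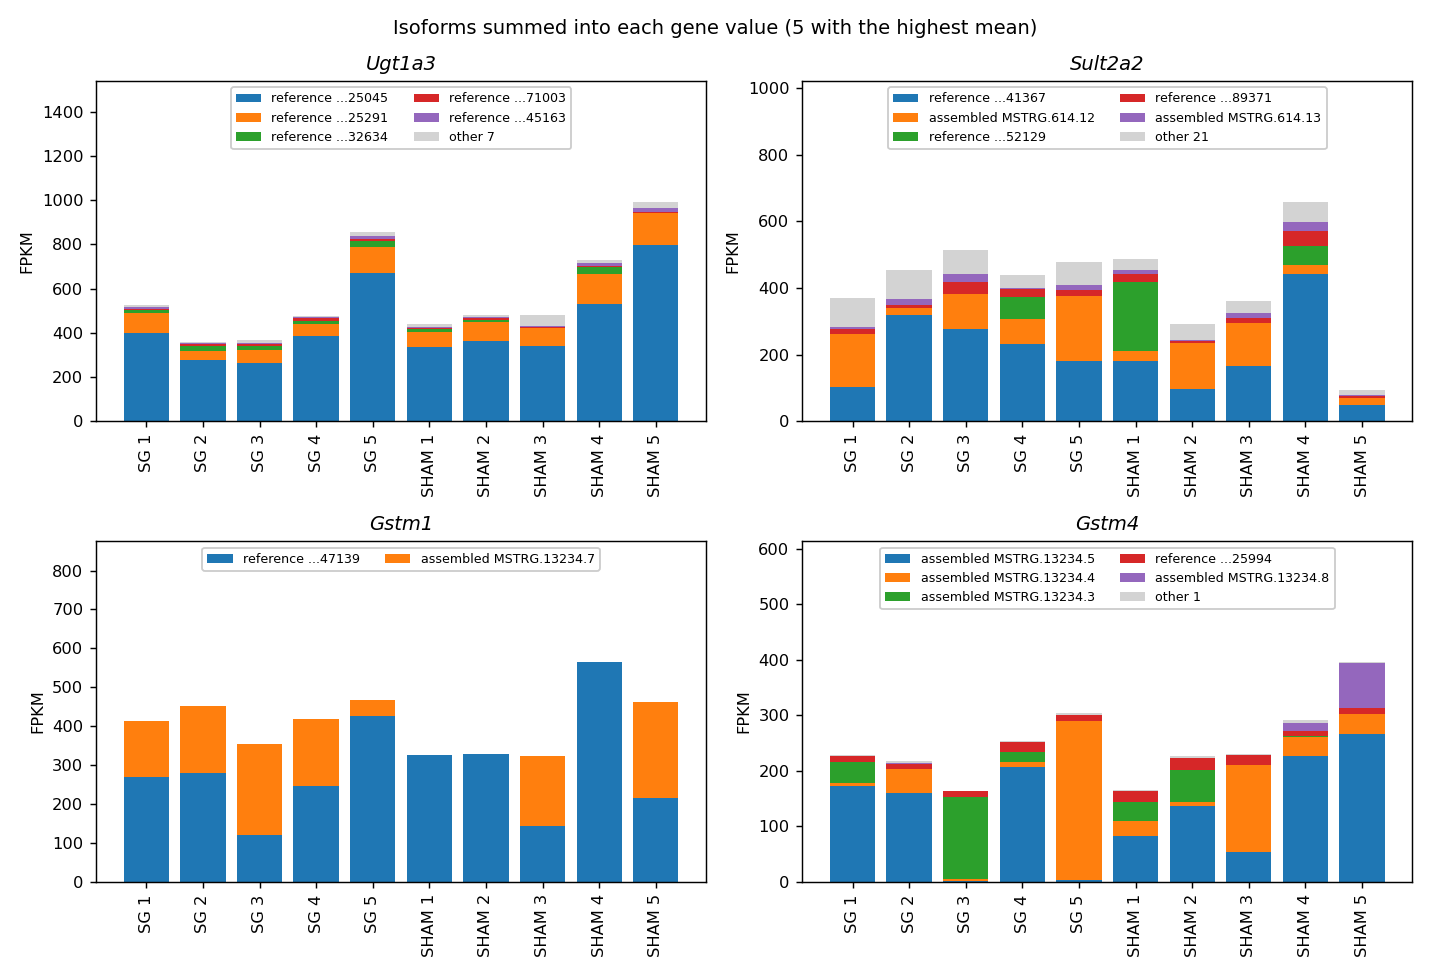
FPKM of the isoforms behind 4 members in each library, stacked to the gene value, with the 5 highest isoforms coloured, reference or assembled as the legend gives, and the rest in grey. One isoform of Ugt1a3 leads in every library, while the leading isoform of Sult2a2 and Gstm4 changes from library to library, and the assembled isoform of Gstm1 was at 0 in SHAM 1 and SHAM 2 and near 0 in SHAM 4.

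Sums over a gene hid differences in how its level was divided between isoforms. Whether the assignment of reads gave these differences was not tested. The assembled isoform of Gstm1 stood at 41.4 to 234 FPKM in the 5 SG libraries and at 180 and 247 FPKM in SHAM 3 and SHAM 5. In SHAM 1 and SHAM 2 it was listed at 0, and in SHAM 4 at 0.0091 FPKM. The reference isoform of Gstm1 stood at 327, 328 and 565 FPKM in those 3 libraries and at 427 FPKM in SG 5. In the remaining libraries it stood at 119 to 280 FPKM. Reference isoforms gave 5.64% of Gstm4, and 3 of its 5 assembled isoforms begin at 210777677 to 210777831, inside the span of Gstm2, and run across Gstm1, so their assignment is uncertain. Of the 30 tested members 15 drew over 90% of their level from reference isoforms and 7 under 50%: Gsta5, Gsta6, Gstm3l, Gstm4, Gstt3, Sult1c2 and Ugt2b15. Of the 135 isoforms 43 were at 0 in at least 1 library, and 5 were above 0 in 1 library only. Tested singly, 0 of 32637 isoforms (0.0%) were called by edgeR and 1420 (4.35%) had an unadjusted p under 0.05. Of 104 member isoforms 0 were called and 5 had an unadjusted p under 0.05, and these belong to Ugt1a3, Sult1e1, Sult1c2, Gstm4 and Sult1c2a. They are named after their values were seen. The Sult1e1 isoform (chr14:22070544-22089248) stood at 4.19 to 10.9 FPKM in SG and at 11.9, 49.4, 6.26, 39.1 and 15.4 FPKM in SHAM 1 to SHAM 5, beside a leading isoform that gave 91.5% of the gene.

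The remaining GST classes gave small differences or differences that rest on few libraries. Gstp1 stood at 6.87, 15.8, 8.93, 8.55 and 9.06 FPKM in SG 1 to SG 5 and at 6.52, 7.59, 9.02, 6.41 and 8.28 FPKM in SHAM 1 to SHAM 5. SG 2 was the one high library and the others overlapped. The log2 fold change of 0.28 ± 0.23 (SE, adjusted p = 0.992 by edgeR) was 0.04 without SG 2. Gstz1, which isomerises maleylacetoacetate in tyrosine breakdown, stood at 70.5 to 120 FPKM in SG and 83.8 to 126 FPKM in SHAM, with a log2 fold change of -0.08 ± 0.16 (SE, adjusted p = 0.992 by edgeR). Of the 3 genes with the antioxidant core shown above, Gsta3 and Gstz1 were thus at their lowest and Gstp1 at its highest in the same library, SG 2. The theta gene Gstt3 stood at 240, 85.3, 213, 187 and 316 FPKM in SG 1 to SG 5 and at 282, 413, 343, 132 and 214 FPKM in SHAM 1 to SHAM 5, with a log2 fold change of -0.46 ± 0.40 (SE, adjusted p = 0.992 by edgeR). SG 2 and SHAM 4 were its low libraries. Gstt1 kept within 19.9 to 29.9 FPKM over all 10 libraries and was the steadiest GST gene, and Gstt2 within 30.5 to 54.9 FPKM. Gstk1, a GST of mitochondria and peroxisomes, stood at 22.9 to 68.7 FPKM in SG and 34.5 to 66.8 FPKM in SHAM, and Gsto1, of the omega class that reduces dehydroascorbate, at 23.8 to 50.3 and 16.8 to 62.3 FPKM. Their log2 fold changes were -0.28 ± 0.26 and -0.32 ± 0.29 (SE; adjusted p = 0.992 by edgeR).

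Across the members single libraries stood out, in both groups. In FPKM, SG 2 was the lowest of the 10 libraries for 10 of the 30 tested members (33.3%), against 9.003% of all tested genes. In CPM, counts scaled to library size, it was lowest for 12 of 30 (40.0%), against 13.3%. The 10 comprise 3 UGT, 2 SULT and 5 GST genes. Every family sum was lowest in SG 2: the UGT genes summed to 1160 FPKM there and to 1403 to 2106 FPKM in the other 9 libraries, the SULT genes to 1032 against 1064 to 1567 FPKM, and the GST genes to 1565 against 1830 to 2352 FPKM. Not all members followed: Sult1c3 and Gstp1 were at their highest in SG 2. In FPKM, SHAM 5 was lowest for 5 members (16.7%), against 18.2% of all tested genes, and highest for 5, against 6.76%.

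**Figure D4:**
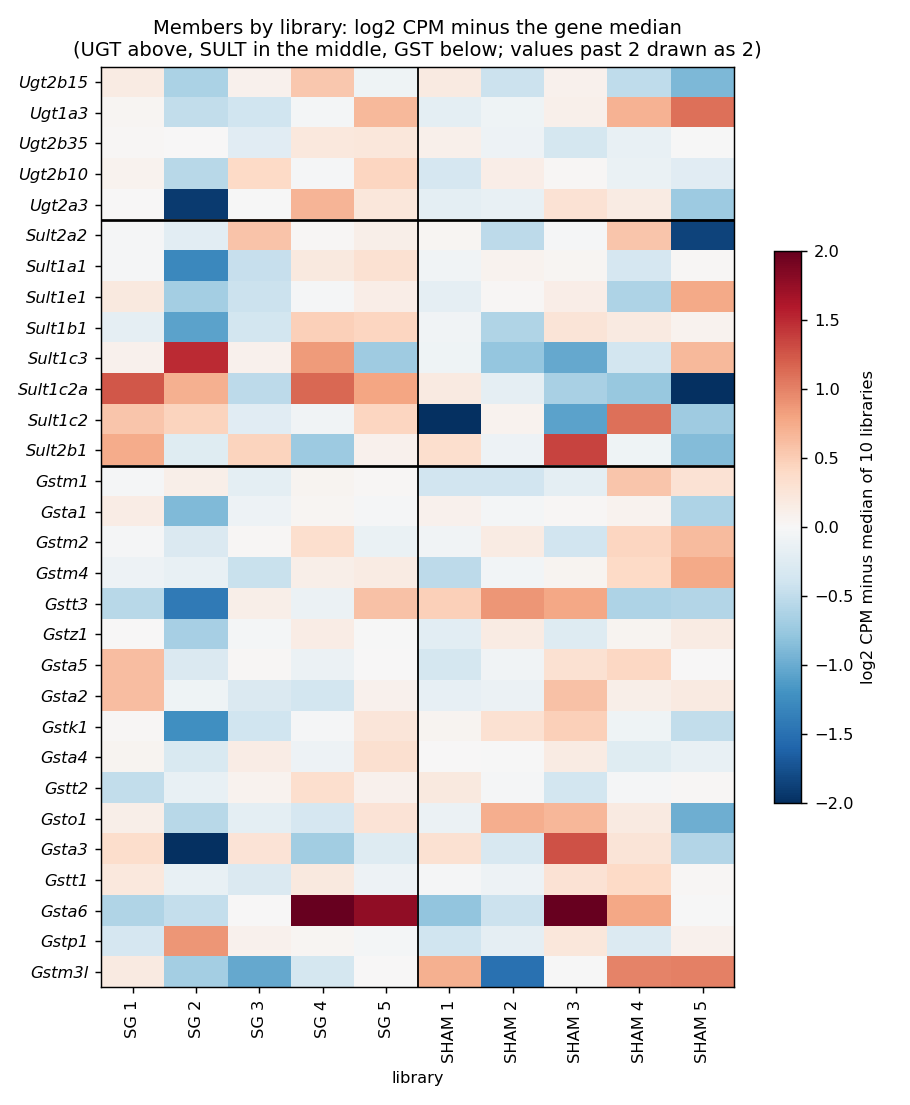
Log2 CPM of each tested member minus its median over the 10 libraries, with UGT, SULT and GST genes from top to bottom and SG left of the line. The SG 2 column is blue for most members, with a median of -0.55 in UGT, -0.23 in SULT and -0.30 in GST. It is most red for Sult1c3 (1.49) and Gstp1 (0.88). Sult1c2a (0.72), Sult1c2 (0.45), Gstm1 (0.12) and Ugt2b35 (0.008) also lie above their medians there.

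Cell type markers moved with the same libraries. The 10 pericentral hepatocyte markers, genes of the zone around the central vein where many conjugation enzymes are most abundant, were all found, and summed to 1521 FPKM in SG 2, 2777 to 4098 in the other SG libraries and 2866 to 4439 in SHAM. Cyp2e1, the largest part of that sum, stood at 895 FPKM in SG 2 against 2101 to 3542 in the other 9, and Glul at 106 against 161 to 377 FPKM. Slc1a2, Rhbg and Slc13a3 were also lowest in SG 2, while Cyp1a2, Oat, Axin2, Tbx3 and Lgr5 were not. Cyp1a2 stood at 474 FPKM in SG 2, near its highest value of 477 FPKM in SG 3. The 10 macrophage and Kupffer cell markers summed to 629 FPKM in SG 2, 291 to 328 in the rest of SG, 646 in SHAM 5 and 243 to 392 in the rest of SHAM. The 8 stellate cell and fibroblast markers summed to 109 FPKM in SG 2, 42.4 to 58.3 in the other SG libraries and 32.1 to 65.6 in SHAM. The 7 hepatocyte markers found, of 8 listed, summed to 36889 to 49314 FPKM in SG, lowest in SG 2, and to 31711 to 44426 FPKM in SHAM, lowest in SHAM 5. The 4 B and plasma cell markers found, of 5 listed, summed to 19.9 to 64.1 FPKM in SG and 5.60 to 24.7 FPKM in SHAM, highest in SG 2. The 4 red blood cell markers found, of 6 listed, summed to 135 to 489 FPKM in SG and 244.8 to 1202 FPKM in SHAM. The 8 periportal hepatocyte markers summed to 1534 FPKM in SG 2, the lowest of SG, and to 1935 to 2993 in the other SG libraries. In SHAM they summed to 1465 to 3738 FPKM, lowest in SHAM 4, so the low hepatocyte markers of SG 2 were not limited to the pericentral list. Markers of endothelial cells (6 of 7 found), bile duct cells (7 of 7) and T and NK cells (6 of 6) summed to at most 98.4, 8.47 and 22.4 FPKM in any library. None of the markers found for these lists was at 0 in all libraries. The part of these cell types in the levels of the conjugation genes was not tested. Without SG 2 and SHAM 5 edgeR called 1 gene over the whole table and 0 members.

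**Figure D5:**
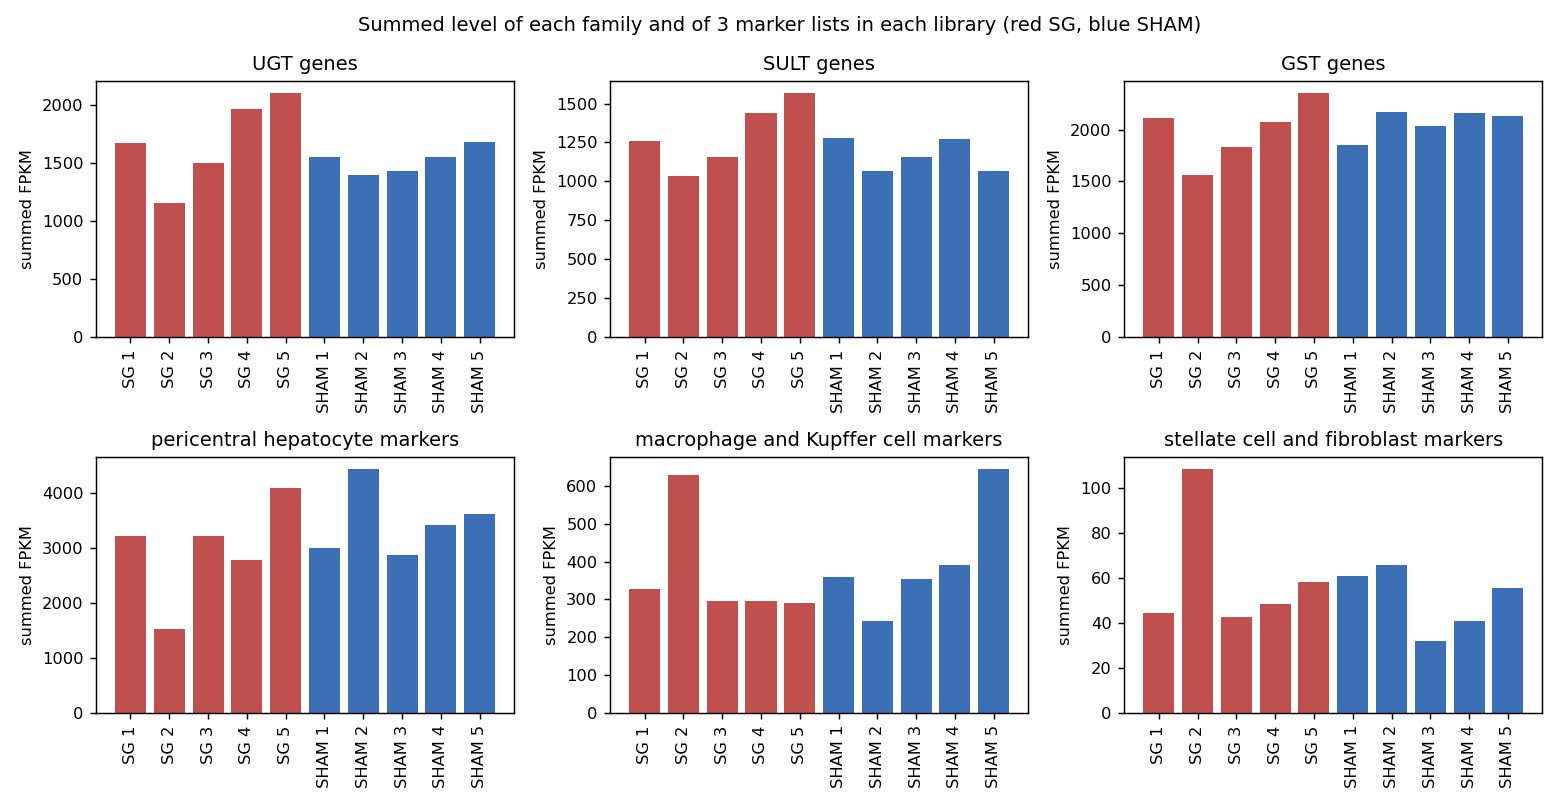
Summed FPKM of the UGT, SULT and GST genes (top) and of 3 marker lists (bottom) in each library, with SG in red and SHAM in blue. SG 2 has the lowest sum of every family and of the pericentral markers (1521 FPKM) and the highest sum of the stellate cell and fibroblast markers (109 FPKM).

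Most of the members lie in gene clusters, and the summed levels of several are given here. Whether neighbours varied together was not tested. In all, 26 of the 37 members lie in 8 clusters, counting the Ugt1a locus, which holds only 1 member name, Ugt1a3. The 4 Ugt2 genes on chromosome 14, from 22192970 to 22955650, summed to 1151, 803, 1134, 1492 and 1250 FPKM in SG 1 to SG 5 and to 1110, 923, 953, 826 and 695 FPKM in SHAM 1 to SHAM 5. In FPKM all SG libraries other than SG 2 lay above every SHAM library. SG 2, at 803 FPKM, lay within the SHAM range. FPKM also tended higher in SG over all tested genes, which summed to 448806 to 542152 in SG and 428716 to 462701 in SHAM. The separation therefore cannot be set apart from this shift in scale, and the Ugt2 sum had no test of its own. The Sult1b1, Sult1d1 and Sult1e1 cluster next to the Ugt2 genes, from 22070544 to 22155231, summed to 239 to 550 FPKM in SG and 307 to 550 FPKM in SHAM. The theta cluster on chromosome 20 summed to 148 to 393 FPKM in SG and 202 to 481 FPKM in SHAM. Spread was also larger in the SULT genes than in the genes at large: the median coefficient of variation within a group was 39.1% in SG and 51.5% in SHAM for SULT, 29.7% and 23.4% for UGT, 26.5% and 25.7% for GST, and 17.7% and 19.8% for all tested genes.

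Genes that feed, follow or regulate conjugation were also without a call. At an unadjusted p under 0.05 by edgeR, 2.68% of all tested genes were higher and 1.85% lower in SG, to be set beside the counts below. Of 5 genes for UDP-glucuronate supply, all tested, 0 had an unadjusted p under 0.05 by edgeR. Slc35b1 and Slc35a3, transporters of nucleotide sugars, had log2 fold changes of -0.23 ± 0.21 and 0.32 ± 0.30 (SE; adjusted p = 0.992 by edgeR). Likewise 0 of the 6 PAPS supply genes tested, of 7 listed, had an unadjusted p under 0.05 by edgeR. Papss2, the main PAPS synthase of liver, averaged 23.7 ± 2.85 FPKM over SG and 23.2 ± 2.19 FPKM over SHAM (SD, n = 5 each), and Slc35b2, which carries PAPS into the Golgi, 4.34 ± 1.27 and 3.44 ± 0.963 FPKM. In glutathione supply and turnover 10 of 13 genes were tested and 1 had an unadjusted p under 0.05, glutathione reductase (Gsr). Gsr stood at 55.3, 33.8, 43.9, 44.4 and 53.5 FPKM in SG 1 to SG 5 and at 59.4, 49.0, 61.3, 65.3 and 58.6 FPKM in SHAM 1 to SHAM 5. SHAM 2 alone of the SHAM libraries lay within the SG range. Its log2 fold change was -0.45 ± 0.15 (SE, unadjusted p = 0.0112, adjusted p = 0.992 by edgeR). Gclm, a subunit of the rate-limiting enzyme of glutathione synthesis, had -0.36 ± 0.22 (SE, adjusted p = 0.992 by edgeR).

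Among 10 tested glutathione enzymes outside the naming rule, of 12 listed, 1 had an unadjusted p under 0.05: Mgst2, a membrane-bound GST that can also make leukotriene C4. Mgst2 stood at 36.3, 35.8, 32.9, 28.2 and 36.7 FPKM in SG 1 to SG 5 and at 44.5, 44.5, 38.6, 62.2 and 47.1 FPKM in SHAM 1 to SHAM 5. Every SG value lay below every SHAM value in FPKM, which makes it 1 of the 5 genes (0.0443%) with such a separation downward. FPKM ran higher in SG over all genes, as given above, and separation on another scale was not counted. Its difference on the log2 scale was -0.42 ± 0.17 (SE, unadjusted p = 0.0304, adjusted p = 0.992 by edgeR). Gpx4, the phospholipid peroxidase that uses glutathione, had -0.28 ± 0.15 (SE, adjusted p = 0.992 by edgeR). The 4 deconjugating enzymes and the 10 of 13 conjugate transporters tested had 0 genes at an unadjusted p under 0.05 by edgeR. Gusb, the glucuronidase that reverses glucuronidation, averaged 10.2 ± 1.20 FPKM over SG and 8.30 ± 1.01 FPKM over SHAM (SD, n = 5 each). Arsb, a lysosomal sulfatase, averaged 7.68 ± 2.10 and 9.13 ± 0.940 FPKM, and the log2 fold changes were 0.21 ± 0.11 for Gusb and -0.34 ± 0.18 for Arsb (SE; adjusted p = 0.992 by edgeR). Slco1a4 and Slco1b2, sinusoidal uptake carriers of organic anions, had log2 fold changes of -0.47 ± 0.30 and -0.32 ± 0.22 (SE; adjusted p = 0.992 by edgeR).

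Of 24 regulators of conjugation genes 21 were tested, 0 were called and 3 had an unadjusted p under 0.05 by edgeR, all with SG lower. Of all tested genes 1.85% were lower at that threshold, and the list was written with earlier results of these data known. Cebpb, a transcription factor of the acute phase, stood at 15.7, 14.02, 8.07, 16.0 and 10.7 FPKM in SG 1 to SG 5 and at 13.3, 26.9, 26.3, 21.4 and 13.1 FPKM in SHAM 1 to SHAM 5. SHAM 2, SHAM 3 and SHAM 4 lay above every SG library and SHAM 1 and SHAM 5 within the SG range. Its log2 fold change was -0.74 ± 0.27 (SE, unadjusted p = 0.0198, adjusted p = 0.992 by edgeR). Keap1, the inhibitor that targets Nrf2 for degradation, averaged 8.07 ± 0.613 FPKM over SG and 8.74 ± 0.558 FPKM over SHAM (SD, n = 5 each), with a log2 fold change of -0.22 ± 0.09 (SE, unadjusted p = 0.0328, adjusted p = 0.992 by edgeR). The third was Ahr, the aryl hydrocarbon receptor, at -0.60 ± 0.27 (SE, unadjusted p = 0.0462, adjusted p = 0.992 by edgeR). Nfe2l2, which encodes Nrf2 and is named after its values were seen, stood at 20.8 ± 7.00 and 19.0 ± 7.26 FPKM (SD, n = 5 each), with a log2 fold change of 0.03 ± 0.28 (SE, adjusted p = 0.998 by edgeR).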

How the data were processed

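Total RNA of 10 rat liver samples, 5 SG and 5 SHAM by their labels, was depleted of ribosomal RNA and sequenced as paired ends, per the labels' protocols. StringTie 1.3.4, HISAT2 2.0.4, FastQC 0.10.1 and cutadapt 1.9 are listed in the submitters' processing notes, with the build Rnor_6.0. The authors deposited FPKM and estimated counts of 51430 isoforms in each library, per the file headers. Isoforms matching, contained in, sharing a junction with or overlapping a reference gene on its strand were summed by gene name, and a name found on several chromosomes (120 names) was kept as a gene on each. Class codes left out 22 UGT, 16 SULT and 3 GST isoforms. Reads of close copies may be split between them.

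Genes entered at a mean of at least 1 FPKM and isoforms at 0.5 FPKM. The deposited estimated counts were rounded and tested with edgeR 4.0.16 (R 4.3.3; trimmed mean of M values, quasi-likelihood, two-sided, Benjamini-Hochberg over all tested genes), after a check on simulated data. DESeq2 1.42.0, limma 3.58.1 on log2(FPKM + 0.5), other scalings, filters and left-out libraries were alternatives. The limma fit on FPKM scaled to a fixed sum per library and the isoform test were added after seeing the data. Estimated totals of 65824088 to 92110190 counts per library gave a median 95% interval of 0.37 to either side on the log2 scale. For edgeR the SE was the size of the log2 fold change over the square root of the F statistic, and the 95% intervals were built from it, so both are approximate. Intervals rest on the spread between libraries and on estimated counts.

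The members, gene lists and marker lists were chosen with earlier results of these data known. Named were, in each family, the 4 members with the highest mean FPKM, the 3 with the smallest p in each direction and the one with the largest ratio of highest to lowest library, and in each other list the 2 genes with the smallest p; further genes are given with their values to account for all members. Promoter windows came from RefSeq (GRCr8), used for sequences and names only. No protein sequences were analysed here.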

Additional observations from a re-analysis of the deposited data

Results flagged for a closer look

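In 66 groups of 5 libraries examined for a library far from the others, 3 stood out by Dixon's criterion (a gap over 0.71 of the range), where chance flags about 1 group in 20. Gsta1 stood at 189 FPKM in SG 2, against 326 to 381 FPKM in the other SG libraries. Gstp1 stood at 15.8 FPKM in SG 2, against 6.87 to 9.06 FPKM in the other SG libraries. Gsta6 stood at 41.2 FPKM in SHAM 3, against 1.52 to 6.68 FPKM in the other SHAM libraries, and 40.2 FPKM of that came from its assembled isoform. SG 2 also held the low pericentral and high macrophage marker sums given above, and their part in these values was not tested.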

How the results depend on the processing

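No member was called under any of 20 alternatives, with adjusted p from 0.354 to 0.9999. Over all genes DESeq2 called 19, leaving out SG 2 and SHAM 5 together gave 1, leaving out each library in turn gave 0 to 1 (1 without SG 5 and 1 without SHAM 1), and every other alternative gave 0; the cause was not tested. Of 458 log2 fold changes of 23 named members under alternatives, 414 kept their sign and 44 turned, and 12 members never turned. The family medians without each library ran from 0.11 to 0.33 (UGT), 0.03 to 0.28 (SULT) and -0.20 to -0.07 (GST). Limma on FPKM, where the median of all genes moved to 0.08, gave Gsta1 0.049 (0.049 with each pseudocount), Gstm1 0.10 and Gsta6 0.20 (0.21 with a pseudocount of 0.1 and 0.19 with 1). It also moved Sult1c2 from 0.41 to 0.94 and Gstm3l from -0.79 to -0.36 without a change of sign. Reference isoforms only gave Sult2a2 -0.10, Gsta1 0.046, Gsta6 0.30 and Gstt2 -0.022. Without SG 2 and SHAM 5 the values were Sult1a1 0.10, Sult1b1 0.16, Sult1e1 0.12 and Gstm1 0.014. Scaling FPKM to a fixed sum, chosen after seeing the data, gave Ugt2a3 -0.092, Gsta6 0.10 and Gstt2 -0.0049. Leaving out each library gave ranges that cross 0 for Ugt2a3 (-0.14 to 0.34), Sult1a1 (-0.25 to 0.082), Sult1b1 (-0.19 to 0.14), Sult1e1 (-0.34 to 0.015), Sult2b1 (-0.37 to 0.28), Gsta1 (-0.16 to 0.093), Gsta4 (-0.00092 to 0.15), Gsta6 (-0.87 to 1.37), Gstm1 (-0.11 to 0.14) and Gstt2 (-0.068 to 0.13). Same-numbered libraries of the groups did not deviate together (correlations -0.22 to 0.14). No pairing was seen, but this check could not show whether the design paired the samples. The replicate block called 0 genes and gave Ugt2a3 -0.054, Gsta6 0.32 and Gstm1 0.019. The 7 members with a mean under 1 FPKM were not tested.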
